A study of Mus musculus with 8 samples.

Results

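The metallothionein and iron-handling genes described here are 10 genes chosen by name, Mt1, Mt2, Fth1, Ftl1, Tfrc, Slc11a2, Slc39a14, Slc40a1, Ireb2 and Aco1, out of 55487 genes in the deposited count table. All 10 were found by Ensembl ID, and 9 had enough reads to be tested. The RNA came from hearts of db/db mice, which lack a working leptin receptor and become obese and diabetic. DIZE, read here as the antiprotozoal compound diminazene aceturate, was given to the mice of 4 libraries and vehicle to those of the other 4, and all 8 libraries share the db/db genotype. The sources used here give no dose, duration or age, and do not say that the libraries are from different animals, so p-values measure only the spread between these samples, which may be technical. By the series title the question was the drug's effect on diabetic heart disease.

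Metallothioneins are small cysteine-rich proteins that bind zinc, copper and cadmium and can scavenge oxidants, and their genes respond to metals, glucocorticoids and inflammation. Iron enters cells on transferrin through the transferrin receptor, is stored inside ferritin shells built of heavy and light chains, and leaves through ferroportin. The iron regulatory proteins bind a short RNA hairpin, the iron-responsive element, when iron is scarce. An element before the coding region blocks translation, and elements after it protect the mRNA from decay, so only the second kind acts through the amount of RNA that read counts measure.

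The elements are shown because their place before or after the coding region decides which of these steps they act on. Annotated transcripts (GENCODE M21, GRCm38) were searched on their own strand for CNNNNNCAGTGNNNNNN in which the 5 bases on either side of the CAGTGN loop pair, G with T allowed. Such a match is a description of letters, not a tested site. It was present in the 5′ UTR of 31 of 20597 genes (0.151%) and in the 3′ UTR of 129 of 20995 genes (0.614%). Fth1, Ftl1 and Slc40a1 each had 1 match in the 5′ UTR, and Tfrc had 4 in the 3′ UTR. The other 6 members had 0 matches, which says only that their annotated UTRs hold no stretch with these letters and all 5 pairs. A hairpin with an unpaired base among the 5 would be missed by this search. Capitals mark the loop, and T stands for U.
Fth1, 5′ UTR, chr19:9982732-9982760, plus strand: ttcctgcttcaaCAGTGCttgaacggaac
Ftl1, 5′ UTR, chr7:45459779-45459807, minus strand: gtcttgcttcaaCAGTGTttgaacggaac
Slc40a1, 5′ UTR, chr1:45925465-45925493, minus strand: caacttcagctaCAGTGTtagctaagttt
Tfrc, 3′ UTR, chr16:32631219-32631247, plus strand: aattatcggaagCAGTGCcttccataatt
Tfrc, 3′ UTR, chr16:32631598-32631626, plus strand: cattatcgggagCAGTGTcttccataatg
Tfrc, 3′ UTR, chr16:32631663-32631691, plus strand: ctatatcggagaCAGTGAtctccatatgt
Tfrc, 3′ UTR, chr16:32631710-32631738, plus strand: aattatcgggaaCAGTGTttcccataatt

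Total counts were 8042396 to 10161623 in DIZE libraries and 7447664 to 10056759 in vehicle libraries. The heart was evident in every library, with a summed level of 7 cardiomyocyte markers of 40752 to 46182 CPM in DIZE and 27721 to 45023 CPM in vehicle, where CPM is the read count scaled to library size with TMM factors. The libraries differed in their content of hepatocyte, atrial and erythroid transcripts. The 9 hepatocyte markers summed to 7.78 to 17.5 CPM in DIZE, and in vehicle to 1824 CPM in library 2 but no more than 36.3 CPM in libraries 1, 3 and 4. The 4 atrial markers summed to 13.6 to 130.5 CPM in DIZE and 35.3 to 810.4 CPM in vehicle, highest in vehicle 1. The 7 erythroid markers in the table summed to 8.95 to 78.5 CPM in DIZE and 101 to 210.4 CPM in vehicle. In whole tissue, fewer cells of a type and less RNA per cell cannot be told apart. The titles of 4 libraries hold the letters db (DIZE 1 and 2, vehicle 1 and 2) and those of the other 4 do not. What this form stands for is not stated.

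None of the 9 tested members passed the threshold of 0.05 of the edgeR quasi-likelihood test (Benjamini-Hochberg adjusted over all genes), in a comparison where 0.0366% of all tested genes (5 of 13648) passed, 0.022% higher and 0.0147% lower in DIZE. None passed in DESeq2 or limma-voom either. Of the 9, 6 had a positive and 3 a negative log2 fold change, with a median of 0.03 against -0.01 over all tested genes. At an unadjusted p under 0.05 there were 2 members, Ftl1 and Ireb2, while 19.4% of all genes lay under that limit. No tested member had groups that did not overlap, against 12.4% of all genes (7.17% higher and 5.26% lower in DIZE). Estimates and intervals below are log2 fold changes of DIZE over vehicle with the standard error (SE) and an approximate 95% interval from that error, not adjusted for the number of genes.

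**Figure D1:**
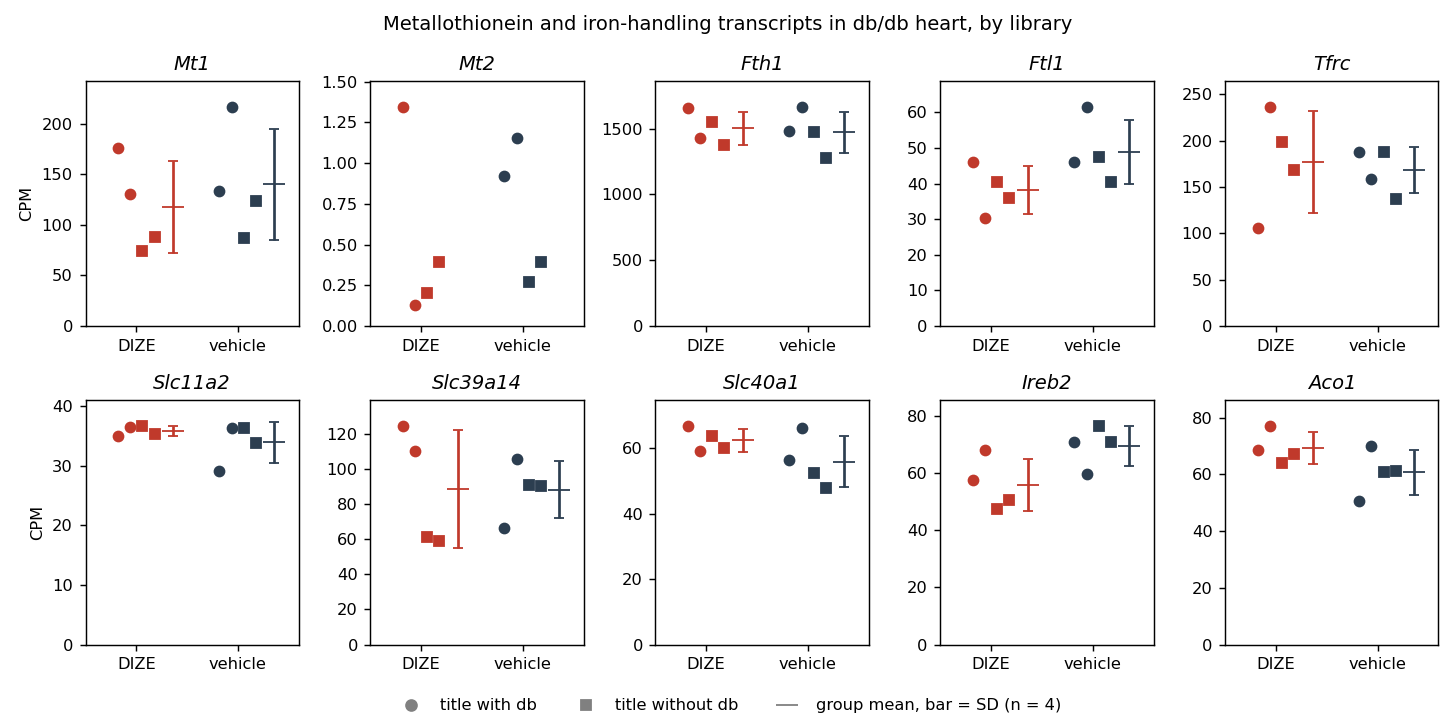
CPM of the 10 members in each library, DIZE left of vehicle, with circles for titles that hold db and squares for the others. Bars show mean and SD of 4 libraries and are left out for Mt2, which had too few reads. The groups overlap in every panel, and the circles of Mt1 lie above the squares within each group.

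Mt1, the main metal-inducible metallothionein measured here, varied more within the groups than between them. It had 176, 131, 74.6 and 88.5 CPM in DIZE 1 to 4, against 133, 216, 87.0 and 124 CPM in vehicle 1 to 4. The groups overlapped, with the lowest value in DIZE 3 and the highest in vehicle 2. The mean was 117 ± 45.7 CPM in DIZE and 140.1 ± 54.6 CPM in vehicle (SD, n = 4 each). The log2 fold change was -0.26 ± 0.31 (SE), with an interval of -0.86 to 0.35 (edgeR adjusted p = 0.678). Vehicle 2 is the library with hepatocyte transcripts, among them 1348 CPM of the albumin gene Alb against at most 6.38 CPM in any other library. Without vehicle 2 the log2 fold change of Mt1 was 0.03, and without DIZE 1 it was -0.52. The part of liver RNA in the Mt1 level of vehicle 2 was not tested.

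In both treatment groups the 2 libraries with db in the title had more Mt1 than the 2 without. The mean was 153 CPM in DIZE libraries with db and 175 CPM in vehicle libraries with db. Without db it was 81.6 CPM in DIZE and 105 CPM in vehicle. The log2 ratio of DIZE to vehicle was therefore -0.19 within the titles with db and -0.37 within the others. In a fit with both treatment and title form, chosen after the data were examined, Mt1 was lower without db by a log2 value of -0.82 ± 0.18 (SE; unadjusted p = 0.00119, edgeR adjusted p = 0.417). No gene passed the adjusted threshold for title form (0%), with 1146 of 13648 genes under an unadjusted p of 0.05.

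Mt2, the neighbouring metallothionein gene, was almost absent from the table. Its read counts were 11, 1, 2 and 4 in DIZE 1 to 4, against 9, 9, 2 and 4 in vehicle 1 to 4, compared with 649 to 1687 reads of Mt1 in a library. It did not pass the filter on low counts, and no fold change is given. The count of Mt1 divided by that of Mt2 ran from 130.9 to 995 in DIZE and from 144 to 324.5 in vehicle (exact two-sided permutation test, p = 0.514), and the 995 rests on 1 read of Mt2.

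The annotation around Mt2 is given because most of its exon bases are shared with another gene. Mt2 lies on the plus strand of chromosome 8 from 94172664 to 94173568 and Mt1 downstream of it from 94179082 to 94180327. The antisense gene Gm45774 covers 432 of the 588 exon bases of Mt2 (73.5%). Only the last 156 bases, from 94173413 to 94173568, are free of it. Gm45774 itself averaged 0.0961 CPM (here without TMM factors), and no exon base of Mt1 is shared in this way. Among protein-coding genes of the table, 11 of 97 with more than 0.7 of their exon bases also annotated on the other strand averaged at least 1 CPM (11.3%). Among those with none shared, 8839 of 16620 did (53.2%). The share did not fall steadily with overlap, and these sets of genes were not matched for length or function. It was 3828 of 5069 (75.5%) with above 0 to 50% shared, and 62 of 111 (55.9%) with above 50% to 0.7 of the bases shared. The library kit marks strand per the labels, but no source used here says whether counting used strand, and the part of this overlap in the level of Mt2 was not tested.

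**Figure D2:**
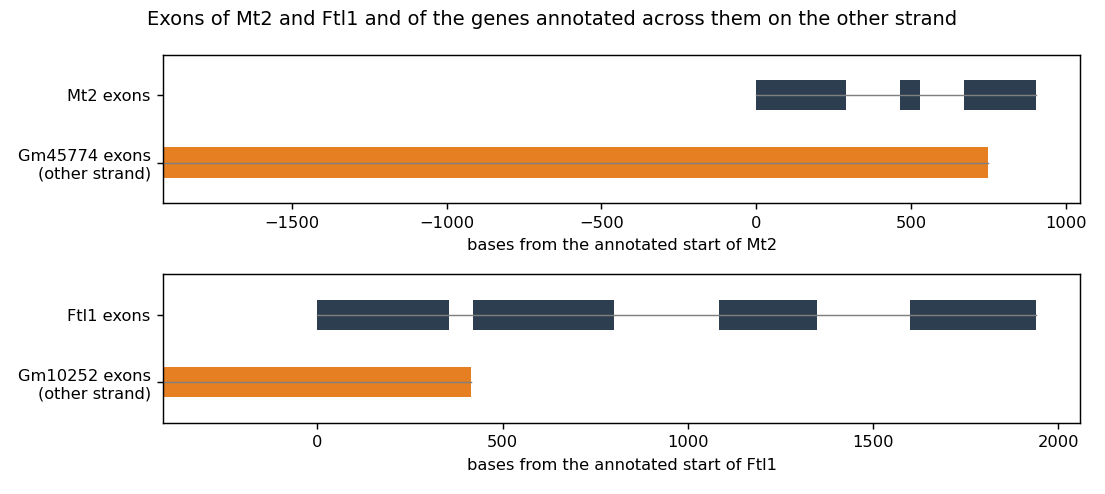
Exons of Mt2 and Ftl1 (dark) and of Gm45774 and Gm10252 on the other strand (orange), drawn to scale in bases from the annotated start of Mt2 or Ftl1. The antisense exon covers all but the last 156 exon bases of Mt2, and 355 of the 1340 exon bases of Ftl1.

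Neither ferritin chain passed the test. Fth1, the heavy chain that oxidises iron, had 1653, 1425, 1548 and 1376 CPM in DIZE 1 to 4, against 1478, 1661, 1470.2 and 1278 CPM in vehicle 1 to 4. The 2 groups covered much the same range, with a log2 fold change of 0.03 ± 0.11 (SE), with an interval of -0.19 to 0.25 (edgeR adjusted p = 0.917). The sign of this value turned in 4 of the alternatives given in the closing part.

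Ftl1, the light chain that helps the iron core form, had 46.0, 30.3, 40.3 and 36.0 CPM in DIZE 1 to 4, against 46.1, 61.4, 47.6 and 40.4 CPM in vehicle 1 to 4. Of the DIZE libraries, 3 lay below every vehicle library, DIZE 3 only just, and DIZE 1 lay among them. The mean was 38.1 ± 6.68 CPM in DIZE and 48.9 ± 8.92 CPM in vehicle (SD, n = 4 each). This log2 fold change of -0.36 ± 0.16 (SE), with an interval of -0.67 to -0.04, did not pass (unadjusted p = 0.0489, edgeR adjusted p = 0.256). It stayed below 0 in each alternative run, between -0.48 and -0.23, and was -0.23 without vehicle 2.

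The ratio of Fth1 to Ftl1 counts within a library does not depend on how libraries are scaled. It was 35.9, 47.1, 38.4 and 38.2 in DIZE 1 to 4, against 32.1, 27.0, 30.9 and 31.6 in vehicle 1 to 4. All 4 DIZE libraries lay above all 4 vehicle libraries. In CPM the groups also did not overlap for 12.4% of all tested genes (7.17% higher in DIZE). The share among ratios of other gene pairs was not computed. The mean ratio was 39.9 ± 4.93 in DIZE and 30.4 ± 2.30 in vehicle (SD, n = 4 each), a difference of 0.39 in log2 of the ratio. An exact two-sided permutation test gave p = 0.0286, the smallest that 4 against 4 libraries can give. Without vehicle 2 the exact permutation p was 0.0571. Over the 2 ratios computed, this one and that of Mt1 to Mt2, the Benjamini-Hochberg adjusted exact p was 0.0571.

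Ftl1 reads are uncertain. The 968-base coding transcript of Ftl1 holds 818 stretches of 151 bases (the read length in the labels). Of these, 571 (69.8%) occur, read on either strand, in transcripts of 5 other annotated genes. Among the 5 are Ftl1-ps1, Ftl2-ps and Gm10252, which is annotated across Ftl1 itself on the other strand. The part of each gene in the 571 was not separated. No such stretch of the other 9 members occurs in another gene's annotated transcripts. Gm10252 covers 355 of the 1340 exon bases of Ftl1 (26.5%), so this share and the 69.8% are not separate. On the same strand as Ftl1, the annotated microRNA gene Gm22133 shares 109 of its exon bases and averaged 0.0 CPM (without TMM factors). Over the 8 libraries Ftl1 had 3070 reads in total, Ftl1-ps1 49 and Ftl2-ps 4. The measured level of Ftl1, and with it the size of the ratio, may depend on how the authors' counting treated shared reads. That was not tested.

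**Figure D3:**
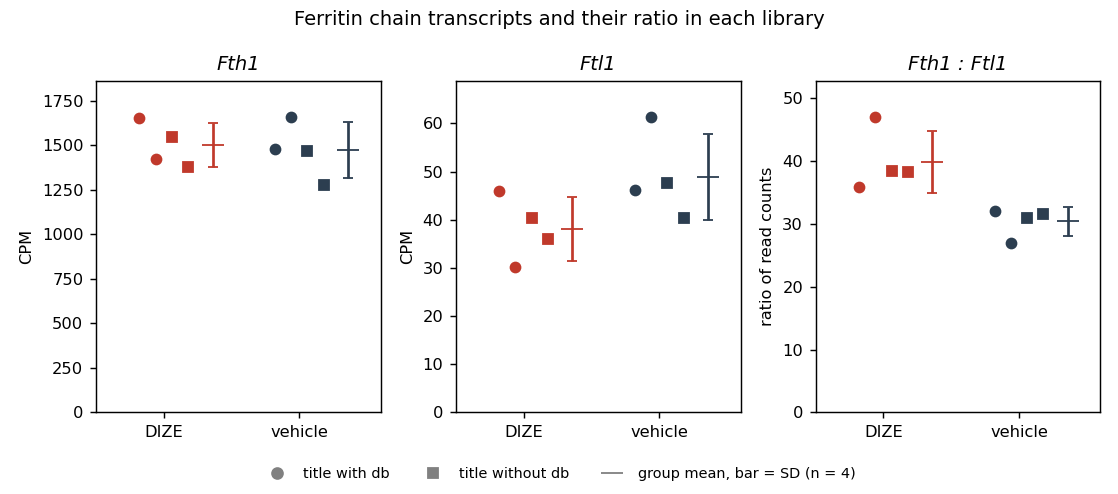
CPM of Fth1 and Ftl1 and the ratio of their read counts in each library, DIZE left of vehicle, with mean and SD of 4 libraries. The ratio is 35.9 to 47.1 in DIZE and 27.0 to 32.1 in vehicle, while the CPM values of the groups overlap.

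Tfrc, the transferrin receptor and the member with 4 elements after the coding region, had 105, 236, 198 and 168 CPM in DIZE 1 to 4, against 188, 159, 188 and 137 CPM in vehicle 1 to 4. DIZE libraries held both the lowest and the highest value, and the estimate was 0.08 ± 0.21 (SE), with an interval of -0.34 to 0.49 (edgeR adjusted p = 0.876). Tfrc is also abundant in young red cells. The erythroid marker sum was 64.0, 8.95, 30.3 and 78.5 CPM in DIZE 1 to 4, against 197, 111, 210.4 and 101 CPM in vehicle 1 to 4. It was lowest in DIZE 2, where Tfrc was highest, while within vehicle the 2 libraries with the most erythroid transcripts also had the most Tfrc. The part of red cells in the Tfrc values was not tested. Without DIZE 1 the log2 fold change was 0.26, and without DIZE 2 it was -0.09.

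Slc11a2, which carries ferrous iron out of endosomes, had 35.0, 36.4, 36.7 and 35.3 CPM in DIZE 1 to 4, against 29.1, 36.3, 36.3 and 33.7 CPM in vehicle 1 to 4. The vehicle spread came mostly from vehicle 1, and the estimate was 0.08 ± 0.11 (SE), with an interval of -0.13 to 0.30 (edgeR adjusted p = 0.709), and 0.02 both without vehicle 1 and with library totals alone. Of its 6354 exon bases, 402 (6.33%) are annotated on the other strand as Gm5475.

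Slc39a14, a zinc and non-transferrin-bound iron importer, had nearly the same mean in both groups and an unlike spread. It had 125, 110.3, 61.5 and 59.0 CPM in DIZE 1 to 4, against 66.4, 106, 91.2 and 90.3 CPM in vehicle 1 to 4. DIZE 1 and 2 lay above every vehicle library, and DIZE 3 and 4 lay below every vehicle library. The mean was 88.9 ± 33.6 CPM in DIZE and 88.5 ± 16.4 CPM in vehicle (SD, n = 4 each), with a log2 fold change of 0.01 ± 0.25 (SE), an interval of -0.48 to 0.49 (edgeR adjusted p = 0.993) and a sign that turned in 7 of 19 alternatives. DIZE 1 and 2 are the libraries with db in the title. The log2 ratio of DIZE to vehicle was 0.45 within titles with db and -0.59 within titles without it. A test of that difference, added after the data were examined, gave 1.04 ± 0.29 (SE) in log2 and did not pass (unadjusted p = 0.0065, edgeR adjusted p = 0.528). No gene passed that test after adjustment (0%), with 1206 of 13648 genes under an unadjusted p of 0.05.

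Slc40a1, ferroportin, the only known cellular iron exporter, had 66.9, 59.1, 63.7 and 60.2 CPM in DIZE 1 to 4, against 56.5, 66.3, 52.6 and 48.0 CPM in vehicle 1 to 4. The DIZE values sat at the upper end of the vehicle range, DIZE 1 just above it, and the estimate was 0.16 ± 0.12 (SE), with an interval of -0.07 to 0.40 (edgeR adjusted p = 0.481). It was 0.26 without vehicle 2 and 0.10 without vehicle 4.

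The iron regulatory proteins had values of unlike sign. Ireb2, which encodes the one removed by degradation when iron is plentiful, had 57.6, 68.0, 47.4 and 50.4 CPM in DIZE 1 to 4, against 71.0, 59.6, 76.6 and 70.8 CPM in vehicle 1 to 4. Of the DIZE libraries, 3 lay below every vehicle library, and DIZE 2 did not. The mean was 55.9 ± 9.17 CPM in DIZE and 69.5 ± 7.10 CPM in vehicle (SD, n = 4 each). This log2 fold change of -0.32 ± 0.14 (SE), with an interval of -0.58 to -0.05, did not pass (unadjusted p = 0.0396, edgeR adjusted p = 0.235). Within titles with db the log2 ratio was -0.06, and within the others -0.59. The test of that difference gave 0.53 ± 0.21 (SE; unadjusted p = 0.0351, edgeR adjusted p = 0.547).

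Fold changes in these libraries moved with the base composition of genes. The median log2 fold change was -0.14 in the 3410 genes of lowest GC content (up to 44.8%) and 0.18 in the 3410 of highest (from 54.3%). The longest Ireb2 transcript has 39.0% GC, and its log2 fold change was -0.09 (edgeR adjusted p = 0.643) once the trend of each library with GC and length was taken out. Tfrc, at 39.8% GC, had 0.25 with that trend removed, and Slc40a1, at 42.0% GC, had 0.35. Ftl1, at 58.1% GC, had -0.40 (edgeR adjusted p = 0.147).

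Aco1, a cytosolic aconitase that becomes an iron regulatory protein when it loses its iron-sulfur cluster, had 68.6, 77.1, 64.1 and 67.3 CPM in DIZE 1 to 4, against 50.6, 70.0, 60.9 and 61.2 CPM in vehicle 1 to 4. All DIZE libraries lay above 3 of the vehicle libraries, and vehicle 2 lay among them, with an estimate of 0.19 ± 0.12 (SE), with an interval of -0.05 to 0.43 (edgeR adjusted p = 0.407), or 0.11 both without vehicle 1 and with the GC and length trend removed.

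**Figure D4:**
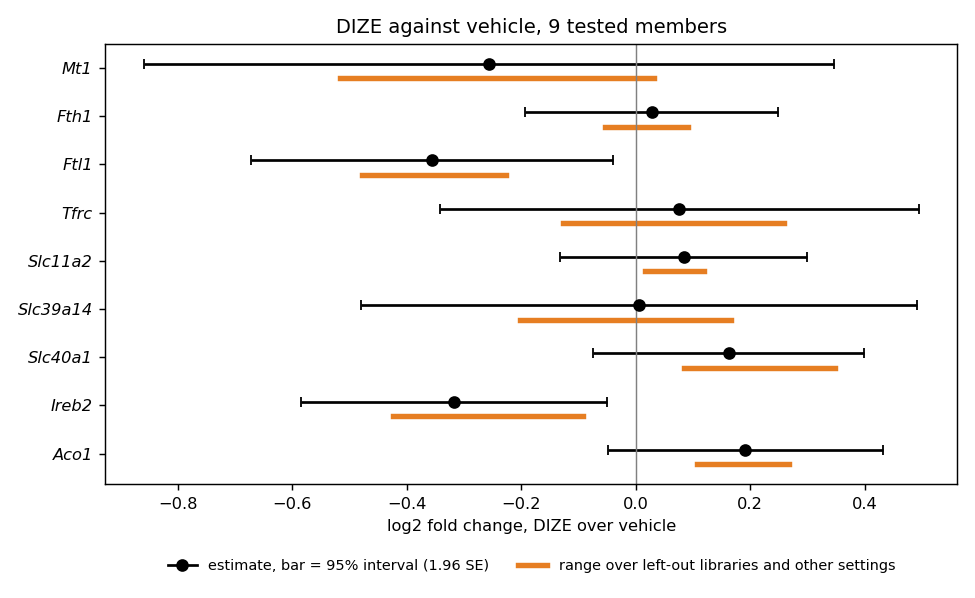
Log2 fold change of DIZE over vehicle for the 9 tested members, with unadjusted 95% intervals (black) and the range over left-out libraries and other settings (orange). Only the intervals of Ftl1 and Ireb2 exclude 0, and neither gene passes after adjustment over all genes.

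Levels can be compared between genes only per length. In reads per kilobase of annotated exon, scaled to the same sum over all genes in each library, Fth1 was highest, with 1259 ± 89.7 in DIZE and 1226 ± 80.4 in vehicle (SD, n = 4 each). Mt1 followed with 274 ± 105 in DIZE and 322 ± 109 in vehicle. Then came Ftl1 (82.9 in DIZE and 105 in vehicle) and Tfrc (83.2 in DIZE and 78.8 in vehicle). These 2 genes could not be ordered, since Ftl1 was above Tfrc in 5 of 8 libraries. Aco1 had 44.9 in DIZE and 39.0 in vehicle, and Slc39a14 had 24.5 in DIZE and 24.2 in vehicle. Ireb2 (17.2 in DIZE and 21.3 in vehicle) and Slc40a1 (20.2 in DIZE and 17.9 in vehicle) could not be ordered either, with Ireb2 above Slc40a1 in 4 of 8 libraries. Slc11a2 was the lowest tested member, with 16.4 in DIZE and 15.4 in vehicle, and Mt2 had 2.56 in DIZE and 3.33 in vehicle on this scale. Every other neighbouring pair in this order kept its order in 8 of 8 libraries, except that Slc39a14 was above Ireb2 in 7. The lengths are those of all annotated exons together, which understates genes whose main coding transcript is much shorter. Slc40a1 has 9000 exon bases against 3370 in that transcript, Fth1 3469 against 1494 and Mt1 1246 against 633. Aco1 has 4496 exon bases against 3832. The order given holds for this length only, and no other length was tried.

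The patterns most like those of single members were sought among 9308 genes with a mean of at least 10 CPM, over the 8 libraries, which share their depth and composition with the member itself. Over these libraries Mt1 was most like Adora1, an adenosine receptor gene (Pearson's r = 0.93), followed by Pgf, Eif2b3, Rnf34 and Gclm, the last a subunit of the enzyme that starts glutathione synthesis (r = 0.91). Among the genes most like Slc39a14 were Traf2, Atf4, Ddx20 and Kansl2, of which Atf4 encodes a transcription factor of the integrated stress response (r = 0.97). Tfrc was most like Slc15a2 (r = 0.96), followed by Asb5, Polr1e, Fut8 and Bcl7c. Mt2 had too few reads for this comparison.

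Other genes of iron handling did not pass either. Of 47 listed genes, 39 were tested, 0 passed in each direction, and the groups did not overlap for 3 of them (7.69%, against 12.4% of all genes), with a median log2 fold change of 0.09. By unadjusted p the leading genes were these. Bmp6, the signal that induces hepcidin in liver, had 55.8, 46.1, 57.4 and 64.5 CPM in DIZE 1 to 4, against 37.4, 44.4, 40.6 and 41.5 CPM in vehicle 1 to 4. All DIZE values of Bmp6 were above all vehicle values, and its log2 fold change was 0.45 ± 0.12 (SE, edgeR adjusted p = 0.118), or 0.20 with the GC and length trend removed. DESeq2 called it (adjusted p = 0.0311).

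Hmox2, the constitutive haem oxygenase, had 62.2 ± 1.37 CPM in DIZE and 50.7 ± 4.52 CPM in vehicle (SD, n = 4 each; log2 0.29 ± 0.10 SE, edgeR adjusted p = 0.171). Its inducible relative Hmox1 had 20.5 ± 4.32 CPM in DIZE and 16.7 ± 2.49 CPM in vehicle, with overlapping groups (log2 0.29 ± 0.17, edgeR adjusted p = 0.365, or 0.17 without DIZE 1). Abcg2, a transporter that exports porphyrins, had 42.2 ± 0.94 CPM in DIZE and 54.6 ± 11.5 CPM in vehicle without overlap (log2 -0.37 ± 0.14, edgeR adjusted p = 0.193). That value was -0.21 without vehicle 1 and -0.15 with the GC and length trend removed. The mitochondrial iron importer gene Slc25a28 had 47.4 ± 5.39 CPM in DIZE and 37.1 ± 5.72 CPM in vehicle (log2 0.35 ± 0.14, edgeR adjusted p = 0.202), or 0.23 with that trend removed.

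Of the genes that act on ferritin and the iron regulatory proteins, Ncoa4, the receptor that takes ferritin to lysosomes, had 53.9 ± 7.15 CPM in DIZE and 63.5 ± 4.32 CPM in vehicle (log2 -0.24 ± 0.12 SE, edgeR adjusted p = 0.309). The value for Ncoa4 was -0.10 with the GC and length trend removed and -0.15 without DIZE 3. Fbxl5, which marks the Ireb2 product for degradation when iron is plentiful, had 76.2 ± 7.91 CPM in DIZE and 81.7 ± 8.16 CPM in vehicle (log2 -0.10 ± 0.12, edgeR adjusted p = 0.669), and its sign turned, to 0.10, with that trend removed.

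Transcripts that liver makes in quantity were uneven between the vehicle libraries. Trf, the transferrin gene, had 72.5, 84.2, 74.4 and 84.9 CPM in DIZE 1 to 4, against 73.4, 355, 62.6 and 68.2 CPM in vehicle 1 to 4. The high value is that of vehicle 2, the library with hepatocyte transcripts. The log2 fold change of Trf was -0.82 ± 0.59 (SE, edgeR adjusted p = 0.475) with that library and 0.22 ± 0.12 without it (edgeR adjusted p = 0.315). Hamp, the hepcidin gene and one of the hepatocyte markers, did not pass the filter on low counts. It had 0, 0.13, 0.20 and 0.49 CPM in DIZE 1 to 4, against 9.03, 7.18, 0 and 2.75 CPM in vehicle 1 to 4. The 3 vehicle libraries with Hamp are vehicle 2 and the 2 with the highest atrial marker sums, 810.4 CPM in vehicle 1 and 314 CPM in vehicle 4. The part of liver or atrial tissue in the Hamp level was not tested.

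Of 33 listed genes of zinc and copper handling, 22 were tested and 0 passed in each direction, with a median log2 fold change of -0.09. Groups did not overlap for 2 of the tested genes (9.09%, against 12.4% of all genes). Atp7a, the copper-exporting ATPase, had 3.17, 3.03, 1.41 and 1.95 CPM in DIZE 1 to 4, against 11.0, 4.1, 12.9 and 6.77 CPM in vehicle 1 to 4. Every DIZE library was below every vehicle library, at low levels. Its log2 fold change of -1.88 ± 0.37 (SE) missed the threshold (edgeR adjusted p = 0.0815). Atp7a was called by DESeq2 (adjusted p = 0.000582), by edgeR with no low-count filter (0.0124) and by edgeR without vehicle 2 (0.0261), and its log2 values over left-out libraries ran from -2.10 to -1.63.

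Slc30a7, a zinc transporter of the Golgi, had 17.8 ± 0.83 CPM in DIZE and 24.9 ± 4.29 CPM in vehicle, also without overlap (log2 -0.49 ± 0.14 SE, edgeR adjusted p = 0.128), or -0.28 with the GC and length trend removed. The zinc importer gene Slc39a3 had 26.0 ± 1.5 CPM in DIZE and 21.0 ± 3.30 CPM in vehicle (log2 0.31 ± 0.13, edgeR adjusted p = 0.231), or a log2 value of 0.02 with that trend removed. The zinc transporter gene Slc30a4 had 23.0 ± 3.86 CPM in DIZE and 28.6 ± 4.52 CPM in vehicle (log2 -0.32 ± 0.16, edgeR adjusted p = 0.301), or -0.17 with it removed and -0.20 without DIZE 3. Mtf1, the zinc sensor that drives metallothionein genes, had 16.1 ± 3.33 CPM in DIZE and 19.5 ± 3.76 CPM in vehicle (log2 -0.28 ± 0.18, edgeR adjusted p = 0.422), or -0.18 without DIZE 3 and -0.18 without vehicle 4. Slc30a1, a zinc exporter induced by the same factor, had 25.9 ± 3.37 CPM in DIZE and 30.1 ± 3.60 CPM in vehicle (log2 -0.22 ± 0.13, edgeR adjusted p = 0.397).

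Of 14 genes of haem synthesis, 13 were tested and 0 passed in each direction, with a median log2 fold change of 0.08. Groups did not overlap for 1 of the tested genes (7.69%, against 12.4% of all genes). The first enzyme of haem synthesis exists in 2 forms. Alas1, the form most cells use, had 376, 466, 415 and 349 CPM in DIZE 1 to 4, against 106, 356, 226 and 280.0 CPM in vehicle 1 to 4. The lowest value was in vehicle 1, and the log2 fold change was 0.73 ± 0.29 (SE, edgeR adjusted p = 0.208), or 0.48 without that library. Alas2, the red cell form, had 2.05 ± 1.54 CPM in DIZE and 4.91 ± 1.49 CPM in vehicle (log2 -1.23 ± 0.45, edgeR adjusted p = 0.182). The erythroid marker sum, which includes Alas2, was also lower in every DIZE library than in any vehicle library, and its part in the Alas2 value was not tested. Clpx, a mitochondrial protease subunit that activates the first enzyme, had 228 ± 16.2 CPM in DIZE and 192 ± 11.7 CPM in vehicle (log2 0.25 ± 0.10, edgeR adjusted p = 0.219). Cpox had 56.9 ± 1.88 CPM in DIZE and 49.9 ± 8.83 CPM in vehicle (log2 0.19 ± 0.13, edgeR adjusted p = 0.451), or 0.08 without vehicle 1.

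Of 30 genes of iron-sulfur cluster assembly, 29 were tested, 0 passed in each direction and 0 had an unadjusted p under 0.05, against 19.4% of all genes. Groups did not overlap for 1 of them (3.45%, against 12.4% of all genes), Bola2. The median log2 fold change was -0.01. The smallest unadjusted p values belonged to Bola2 (log2 -0.37 ± 0.17), Ciao3 (0.26 ± 0.12), Fdxr (0.37 ± 0.18) and Hspa9 (0.18 ± 0.10), with edgeR adjusted p from 0.261 to 0.347. With the GC and length trend removed, Ciao3 had 0.06 and Fdxr 0.16, and with library totals alone Hspa9 had 0.12.

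Inducers of metallothionein other than metals were read from 2 further lists. Of 19 acute-phase and interleukin-6 responsive genes, 17 were tested and 0 passed in each direction, with a median log2 fold change of -0.11. Groups did not overlap for 1 gene of the interleukin-6 list (5.88%, against 12.4% of all genes). Socs3, a feedback inhibitor of that pathway, had 7.52 ± 1.59 CPM in DIZE and 5.17 ± 1.31 CPM in vehicle without overlap (log2 0.53 ± 0.23, edgeR adjusted p = 0.234), or 0.30 with the GC and length trend removed. The receptor gene Il6ra had 9.68 ± 2.52 CPM in DIZE and 12.9 ± 1.49 CPM in vehicle (log2 -0.42 ± 0.19, edgeR adjusted p = 0.256). The plasma protein genes Hp and Itih4 rested on vehicle 2, the library with hepatocyte transcripts. Hp had log2 -3.78 with that library and -0.55 without it, and Itih4 had -2.36 with it and -0.61 without it.

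Of 18 glucocorticoid-responsive genes, which include Mt1 and Mt2, 17 were tested and 0 passed in each direction. The median log2 fold change was -0.10. Groups did not overlap for 0 of the tested genes, against 12.4% of all genes. Cdkn1a, a cell cycle inhibitor, had 105, 66.0, 40.3 and 45.1 CPM in DIZE 1 to 4, against 23.9, 46.7, 23.3 and 35.3 CPM in vehicle 1 to 4. Its groups overlapped and its log2 fold change was 0.99 ± 0.32 (SE, edgeR adjusted p = 0.153), or 0.64 without DIZE 1. DESeq2 called it (adjusted p = 0.0445). Pdk4, the kinase that shuts down pyruvate oxidation, had 3399 ± 908 CPM in DIZE and 2296 ± 806 CPM in vehicle (log2 0.57 ± 0.24, edgeR adjusted p = 0.229), or 0.36 without DIZE 1. Sgk1 had 139.7 ± 22.3 CPM in DIZE and 177 ± 17.3 CPM in vehicle (log2 -0.34 ± 0.14, edgeR adjusted p = 0.211). Lcn2, an iron-chelating carrier that 3 of the lists hold, had 7.01 ± 1.64 CPM in DIZE and 9.84 ± 4.22 CPM in vehicle (log2 -0.49 ± 0.29, edgeR adjusted p = 0.371), or -0.17 without vehicle 2.

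**Figure D5:**
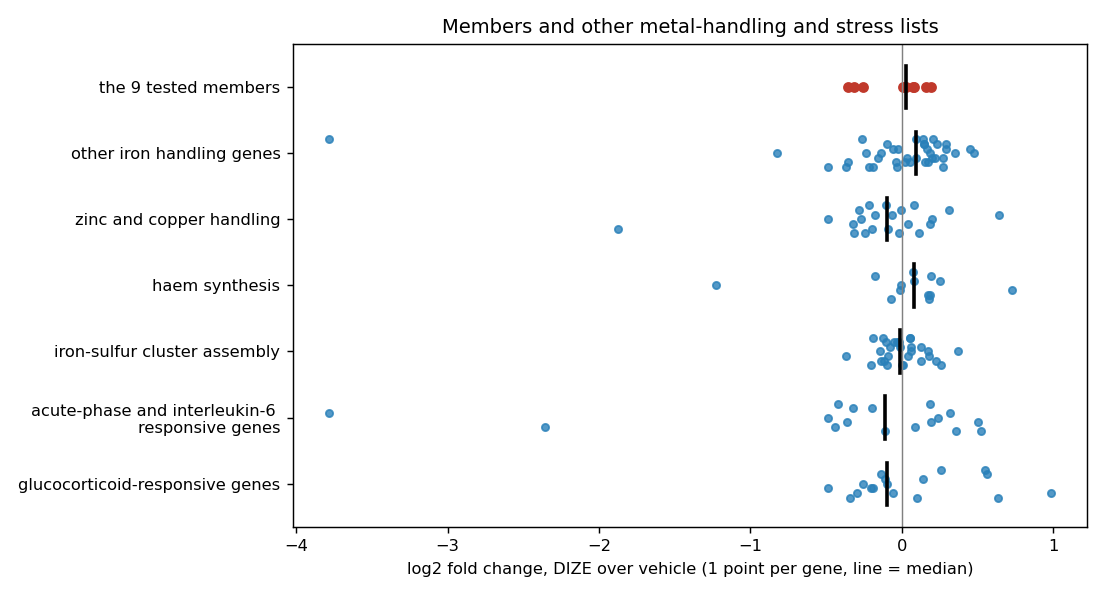
Log2 fold change of DIZE over vehicle for the 9 tested members (red) and the tested genes of 6 lists (blue), 1 point per gene, with a line at each median. The medians lie between -0.11 and 0.09, and the point near -3.8 in 2 lists is Hp, which rests on vehicle 2.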

How the data were processed

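The deposited table holds raw counts of reads per Ensembl gene made by the authors. Tools named in the submitters' processing notes are HTSeq 0.6.1p1, STAR 2.7.3, R 4.1 and edgeR, with build mm10. Settings, annotation release and strand option are not stated in these notes. Columns were tied to samples by their descriptions, with 0 columns from other samples, and symbols matched 55141 of 55487 IDs. List symbols not in the table were matched through RefSeq synonyms.

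Genes were kept by filterByExpr (minimum count 10, total 15), scaled by TMM and tested with edgeR 4.0.16 (quasi-likelihood, robust, R 4.3.3), adjusted over 13648 genes. DESeq2 1.42.0, limma 3.58.1 (voom), other scalings and filters, blocks, removal of the GC and length trend and left-out libraries were alternatives. The fit was tested on simulated data. It recovered 69.4 to 75.5% of 2-fold changes and 97.9 to 100% of 4-fold changes, and 4.97 to 6.29% of its calls were false. Smaller changes were not simulated. No pair of libraries agreed within sampling noise, with a chi-square of at least 5.54 per degree of freedom. Vehicle 1 was furthest from the others, with 24.8 (vehicle 3) to 52.3 (DIZE 4), against at most 22.5 in pairs without it.

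The members and the lists were chosen with earlier results of these data known. All members, 7 further genes and up to 4 genes per list with the smallest unadjusted p are named. The likeness search took the 5 most correlated genes for 3 members, Mt1, Tfrc and Slc39a14. One of these genes is not reported here. The naming of Alb and of the untested Hamp and the title-form tests were chosen after values were seen.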

Additional observations from a re-analysis of the deposited data

Results flagged for a closer look

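Among 49 genes, marker sums and ratios checked in both groups, 11 values stood far from those of the other 3 libraries of their group, where chance gives about 1 in 20 of 98 groups. No tested member and no ferritin ratio was among them. In vehicle 2, Trf was at 355 CPM against at most 73.4 CPM in the other vehicle libraries, Hp at 144 CPM against at most 8.41 CPM, Itih4 at 35.7 CPM against at most 3.92 CPM and the hepatocyte marker sum at 1824 CPM against at most 36.3 CPM. In vehicle 1, Abcg2 was at 71.7 CPM against at most 50.7 CPM, Bola2 at 12.9 CPM against at most 9.81 CPM and the fibroblast marker sum at 1916 CPM against at most 1184 CPM. In vehicle 3 the endothelial marker sum was at 1228 CPM against at most 878 CPM. In DIZE 1, Socs3 was at 9.89 CPM against at most 6.87 CPM in the other DIZE libraries, and Pdk4 at 4745 CPM against at most 3145 CPM. In DIZE 3, Sgk1 was at 106.5 CPM against at least 148 CPM.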

How the results depend on the processing

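Under each of 19 alternatives, 0 of the 9 tested members passed. The sign held in each for Ftl1, Slc11a2, Slc40a1, Ireb2 and Aco1. The log2 value of Slc39a14 turned to -0.00895 with upper quartile factors, -0.0583 with library totals alone, -0.0558 with limma-voom and -0.0682 with title form as a block, and ran from -0.202 to 0.166 with left-out libraries. That of Fth1 turned to -0.0391 with library totals alone and -0.0537 with the title number as a replicate block, and ran from -0.0344 to 0.0915 with left-out libraries. That of Tfrc turned to -0.127 with the title number as a replicate block and ran from -0.0927 to 0.259 with left-out libraries. That of Mt1 ran from -0.516 to 0.0322, above 0 only without vehicle 2. The causes of these turns were not tested, and each turned value lay within its standard error of 0. Library totals alone moved the median of all genes to -0.0809.

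The count of all genes called, 5, became 0 with library totals alone, 386 with no low-count filter, 606 with DESeq2, 9 with title form as a block and 0 with the title number as a replicate block. It ran from 0 to 240 with left-out libraries, the highest without vehicle 2. Of the listed genes, 1 was called with no low-count filter, 3 with DESeq2 and 0 to 1 with left-out libraries, Atp7a without vehicle 2. The difference in log2 ratio of Fth1 to Ftl1 ran from 0.305 to 0.436 with left-out libraries. Same-numbered titles did not deviate together (r from -0.14 to 0.0204). The number 4 recurs within each group, so these values cannot decide whether the number marks a pairing. Mt2, with 1 to 11 reads per library, was too low to test here.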
